A study of Mus musculus with 14 samples.

Results

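Transcripts of *Ltf*, *Pigr*, *Lcn2* and *Sftpd*, whose proteins act in mucosal defence, and of the surface protein gene *Ly6a* were followed through 14 RNA-seq libraries of mouse fibroblasts, induced hepatic cultures and liver. These are 5 of the 28022 genes in the deposited count table and were chosen by their higher counts in 3D than in 2D culture in these same libraries. Their 3D and 2D levels are therefore given as a description without a test, and tests are kept for the contrasts that did not choose them.

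The study made induced hepatic stem cells (iHepSCs) from C57BL/6J mouse embryonic fibroblasts with lentiviral *Oct4* and *Hnf4α*. It asked how 3D culture and induced endothelial cells (iECs) change these cells. The iECs came from the human fibroblast line HF1 by *ETV2* transduction, so that co-cultured libraries hold cells of both species. RNA was sequenced from 7 groups of 2 libraries each. These were embryonic fibroblasts (Fib), iHepSCs in 2D (2D-iH), iHepSCs with iECs in 2D (2D-iHE), organoids of iHepSCs alone (iHLO), assembloids of iHepSCs and iECs (iHEA), adult liver and fetal liver, all labelled as C57BL/6J. According to the methods, every culture received the medium with oncostatin M, and the 3D cultures differed from 2D also by a spheroid step and by encapsulation in Matrigel and type I collagen. These conditions changed together, so the part of each in a 3D level cannot be told apart. The methods, in their section on qRT-PCR, describe young adult mice and mid-gestation embryos as the sources of the livers. In these bulk samples, fewer cells of a type and less RNA per cell cannot be told apart either. Nothing in the labels shows that the 2 libraries of a group came from separate cultures or animals, so p-values measure the spread between these libraries, which may be technical.

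Mucosal surfaces are protected by proteins that epithelia and phagocytes release. Lactoferrin (*Ltf*) and lipocalin 2 (*Lcn2*) withhold iron from microbes, lactoferrin by binding iron itself and lipocalin 2 by capturing bacterial siderophores. The polymeric immunoglobulin receptor (*Pigr*) carries dimeric IgA across epithelial cells and is shed with it as secretory component, which in rodents also brings IgA into bile, and surfactant protein D (*Sftpd*) is a collectin that binds sugars on microbial surfaces. *Ly6a* encodes Sca-1, a GPI-anchored surface protein of the Ly6 family that is not secreted and is known as a stem cell and interferon-inducible marker.

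Total counts were 20851489 to 35143325 per library. Albumin (*Alb*), a defining marker of hepatocytes, had 2 to 210 counts per culture library against 268280 or more per liver library. The adult liver libraries had 14646 and 16368 counts of *Xist*. The methods name male mice for the adult livers of qRT-PCR and give no sex for the sequenced livers. Fibroblasts had 93134 and 73323 counts of *Xist* and the culture libraries 34 to 165, and the reason was not tested. The 2 iHEA libraries stood further apart from each other than other pairs of cultures, with a mean chi-square of 11.5 per gene against 3.44 to 3.67 in the other 3 culture groups. The fetal liver pair reached 13.4, against 3.05 and 3.64 for fibroblasts and adult liver. One of the iHEA libraries carries 2 conflicting numbers in its label and is called the unnumbered iHEA library. Human iEC transcripts enter these counts only through reads that map to the mouse genome, and their part in the co-culture values was not tested.

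The 5 genes lie on 5 chromosomes of GRCm38, each as a protein-coding gene without an overlapping annotated gene. *Ltf* spans chr9:111019271-111042767 on the plus strand, *Pigr* chr1:130826684-130852249 on the plus strand, *Lcn2* chr2:32384633-32388252 on the minus strand, *Sftpd* chr14:41172214-41185149 on the minus strand and *Ly6a* chr15:74994877-74998031 on the minus strand. The 250 bases before the transcription start were in the RefSeq promoter table of GRCm38.p6 for 3 of them, *Ltf*, *Pigr* and *Lcn2*, and the RefSeq starts of *Ltf* and *Lcn2* lie inside the annotated genes given above. They are shown because *Lcn2* and *Pigr* are textbook targets of inflammatory signalling, whose factors bind known short motifs. Capitals mark matches on either strand to the NF-kB motif, read as GGG and CC with any 5 bases between them, and to the C/EBP motif TTNNGNAA.
Ltf, chr9:111019042-111019291, plus strand: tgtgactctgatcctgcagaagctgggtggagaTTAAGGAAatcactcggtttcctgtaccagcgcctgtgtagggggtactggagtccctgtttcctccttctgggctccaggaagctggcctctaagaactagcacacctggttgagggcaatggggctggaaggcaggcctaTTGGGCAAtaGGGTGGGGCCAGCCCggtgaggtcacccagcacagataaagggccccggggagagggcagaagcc
Pigr, chr1:130826434-130826683, plus strand: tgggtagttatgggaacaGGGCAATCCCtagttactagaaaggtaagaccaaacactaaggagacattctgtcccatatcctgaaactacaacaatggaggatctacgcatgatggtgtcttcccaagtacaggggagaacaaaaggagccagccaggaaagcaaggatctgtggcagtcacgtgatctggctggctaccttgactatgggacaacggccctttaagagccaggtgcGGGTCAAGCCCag
Lcn2, chr2:32387740-32387989, minus strand: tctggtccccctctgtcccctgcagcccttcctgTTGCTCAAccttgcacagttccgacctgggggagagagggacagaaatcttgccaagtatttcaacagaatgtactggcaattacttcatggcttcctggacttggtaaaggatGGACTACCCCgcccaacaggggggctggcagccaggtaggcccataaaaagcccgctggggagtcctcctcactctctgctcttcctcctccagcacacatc

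Each of the 3 windows held at least 1 match to the NF-kB pattern, which was found in 45.8% of the 32851 promoter windows of this length. TTNNGNAA was found before *Ltf* and *Lcn2* and occurs in 36.8% of all windows. In the *Ltf* window, the overlapping NF-kB matches began 65, 61 and 60 bases before the start, close behind a C/EBP match at 75. *Pigr* had NF-kB matches beginning 232 bases and, overlapping, 13 and 12 bases before the start. *Lcn2* had its C/EBP match at 216 and its NF-kB match at 102. No match was found in the 3 windows to the STAT motif TTCNNNGAA, which occurs in 7.02% of all windows. The same held for the ETS motif GGAAGT (in 19.7% of all windows) and for the AP-1 motif TGANTCA (6.75%). The TATA box motif TATAAA (12.4%) and the interferon-stimulated response element, read as GAAA repeated after any 2 bases (2.98%), were not in them either. A match describes letters and not a bound site.

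*Ltf* had the widest step between the culture formats among the members with counts in both. The 2D-iH libraries held 11 and 16 counts and the 2D-iHE libraries 26 and 11, against 47066 and 40568 for iHLO and 46939 and 50605 for iHEA. In CPM, the count scaled to the TMM-adjusted library size, this was 0.484 ± 0.149 in 2D and 1479 ± 223 in 3D (SD, n = 4 libraries each), a ratio of 3059. All 3D libraries lay above all 2D libraries, and the iHLO and iHEA ranges overlapped. Fibroblasts had 2 and 6 counts, adult liver 13 and 17, and fetal liver 762 and 504. The order from high to low was thus iHEA, iHLO, fetal liver, adult liver, 2D-iHE, 2D-iH and Fib, and neighbours overlapped in the pairs iHEA with iHLO and 2D-iHE with 2D-iH. With CPM by total count, adult liver (0.432) instead stood below 2D-iHE (0.634) and 2D-iH (0.441), and the iHEA libraries no longer overlapped those of iHLO. In 3D the *Ltf* level exceeded that of fetal liver 76.4-fold.

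*Pigr* was nearly absent from 2D culture as well. The 2D-iH libraries had 7 and 3 counts, the 2D-iHE libraries 9 and 5, the iHLO libraries 11298 and 10196, and the iHEA libraries 12665 and 17539. The mean CPM was 0.182 ± 0.0604 in 2D and 416.9 ± 139 in 3D (SD, n = 4), a ratio of 2290. Adult liver was the highest group with 28904 and 32069 counts, and its 1961 ± 99.5 CPM (SD, n = 2) was 4.70 times the 3D mean. This ratio depended on scaling and was 1.82 with CPM by total count. Fetal liver had 15 and 18 counts and fibroblasts had none. No neighbouring groups overlapped in the order adult liver, iHEA, iHLO, fetal liver, 2D-iHE, 2D-iH and Fib, although the iHEA libraries were 383.2 and 621.2 CPM and so differed more from each other than iHEA 1 did from iHLO 1 (345.5 CPM).

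*Lcn2* was already measurable in 2D. It had 239 and 216 counts without iECs (2D-iH) and 926 and 531 with them (2D-iHE), rising to 6547 and 4503 for iHLO and 7711 and 4247 for iHEA. CPM averaged 14.8 ± 9.38 in 2D and 181.1 ± 43.6 in 3D (SD, n = 4), a ratio of 12.2. The ratio was 25.3 between iHLO and 2D-iH and 8.37 between iHEA and 2D-iHE. Adult liver (1621 and 1654 counts) came next below the 3D cultures, whereas fetal liver (311 and 197) overlapped 2D-iH and fibroblasts (40 and 39) were lowest.

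*Sftpd* was the member with no 2D signal at all. There were 0 counts in all 4 libraries of 2D culture and in both fibroblast libraries. The iHLO libraries had 860 and 558 counts and the iHEA libraries 951 and 1026. At 27.2 ± 7.81 CPM in 3D (SD, n = 4) against a floor of 3 counts per 2D library (0.0949 CPM), the level was at least 287-fold higher. Adult liver had 70 and 65 counts and fetal liver 6 and 13. *Sftpd* thus separated 3D culture from every other group, with iHEA above iHLO, then adult liver and fetal liver, and no overlap between these neighbours.

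*Ly6a* had, per length, the highest 2D level of the members. Libraries of 2D-iH held 2638 and 2324 counts and those of 2D-iHE 1981 and 1185, whereas iHLO had 39979 and 40194 and iHEA 37418 and 29539. In CPM, 61.7 ± 13.4 in 2D stood against 1163 ± 93.4 in 3D (SD, n = 4), a ratio of 18.9. It was the only member that was higher in iHLO than in iHEA, without overlap. Fibroblasts had 693 and 553 counts, adult liver 664 and 705, and fetal liver only 22 and 24. Of its 75-base stretches, 6.33% also occur in other genes, mostly *Ly6c1*, so a small part of its reads could belong to that gene.

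**Figure D1:**
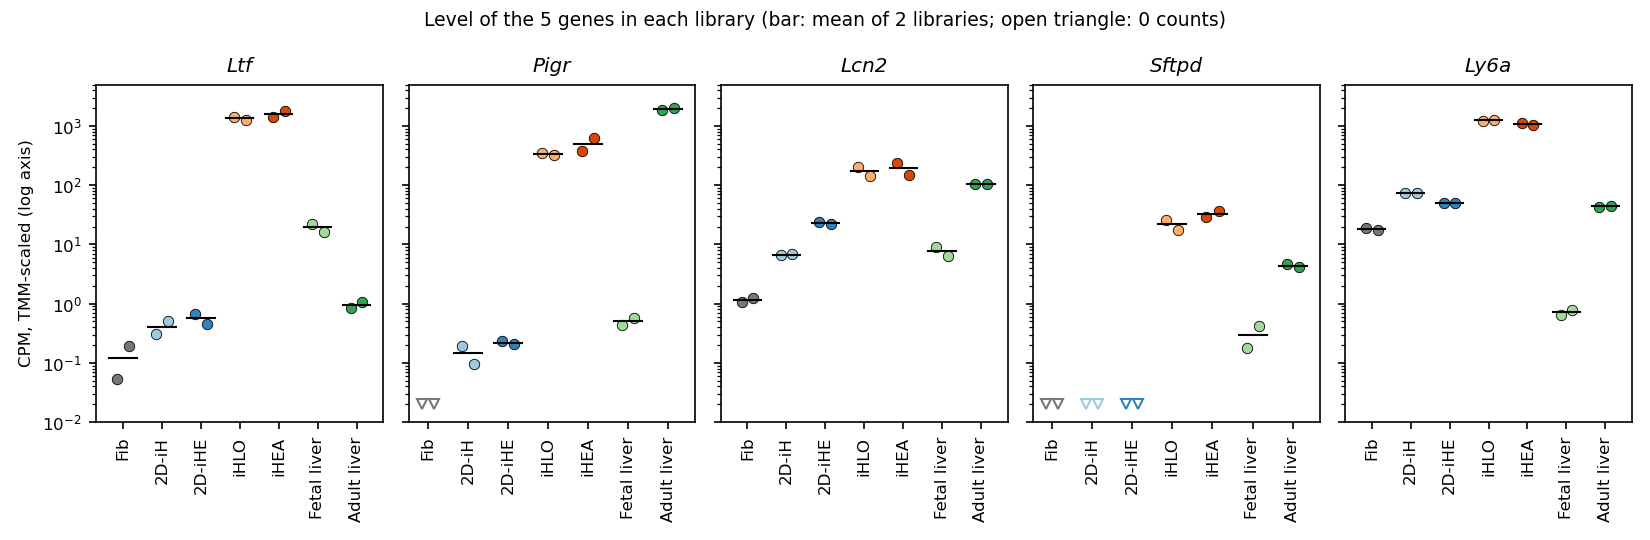
CPM of each gene in the 14 libraries on a log axis, 1 point per library, with a bar at the mean of the 2 libraries of a group and open triangles for libraries with 0 counts. The iHLO and iHEA points lie above all 2D points in the 5 panels, and only *Pigr* is higher in adult liver than in 3D.

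Per length, the members differed widely from each other in 3D. *Ly6a* reached 868.3 to 1040 CPM per kilobase of exons and ranked 11th to 13th among genes with counts and a known length in each 3D library. *Ltf* had 366.5 to 519.5 CPM per kilobase (ranks 38 to 74), *Pigr* 79.0 to 154.3 (ranks 191 to 456) and *Lcn2* 53.5 to 88.9 (ranks 378 to 750). *Sftpd* was far lower, at 7.20 to 15.0 CPM per kilobase. In adult liver the per-length order was instead *Pigr*, *Lcn2*, *Ly6a*, *Sftpd* and *Ltf*, with mean levels of 487.3, 40.2, 36.6, 1.80 and 0.279 CPM per kilobase.

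The members were chosen for this step, so nothing is read from their number. *Pigr* and *Sftpd* reached the filter on low counts only with their 3D libraries and so had to differ. Among all 13409 genes tested between 3D and 2D, 33.7% had every 3D library above every 2D library and 38.7% were called higher at an adjusted p under 0.05 (75.9% in either direction).

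Addition of iECs was compared within each culture format, a contrast that the choice of genes did not use. In 3D, none of the 5 members passed the test (edgeR quasi-likelihood with Benjamini-Hochberg adjustment), beside 2.26% of all tested genes. *Pigr* was 0.62 ± 0.16 higher in iHEA than in iHLO on the log2 scale (SE, adjusted p = 0.0658 from edgeR), and *Sftpd* was 0.59 ± 0.17 higher (adjusted p = 0.123 from edgeR). The differences were 0.27 ± 0.10 for *Ltf*, 0.19 ± 0.16 for *Lcn2* and -0.17 ± 0.05 for *Ly6a*, with adjusted p of 0.235, 0.735 and 0.101 from edgeR. Before adjustment, 4 of the 5 had a p under 0.05, with *Lcn2* the exception, beside 12.7% of all tested genes. The DESeq2 Wald test called 1 of the 5, *Ly6a* (adjusted p = 0.0358), beside 297 of 13409 tested genes. The calls depended on the filter, and the sizes of the differences on single libraries. Without the filter on low counts, *Ltf*, *Pigr*, *Sftpd* and *Ly6a* passed the edgeR test, with adjusted p of at most 0.0192 and differences of 0.25, 0.60, 0.57 and -0.18, beside 4.23% of all genes then tested. Where an iHEA or iHLO library was left out, that group had no spread of its own, so only sizes are given here for these fits. Without iHEA 1, the differences were 0.44 for *Ltf*, 0.94 for *Pigr*, 0.77 for *Sftpd* and -0.21 for *Ly6a*. Without the unnumbered iHEA library, they were 0.07 for *Ltf*, 0.21 for *Pigr* and 0.46 for *Lcn2*. The *Lcn2* difference turned to -0.14 without iHEA 1 and to -0.04 without iHLO 2. The *Sftpd* difference was 0.92 without iHLO 1 and 0.33 without iHLO 2. Epithelial markers moved in the same contrast, with 4 of 10 called higher in iHEA (*Cldn4* 1.61, *Epcam* 0.58, *Cdh1* 0.23 and *Krt18* 0.22) and none lower, beside 1.19% of all tested genes called higher. Their part in the members' values was not tested.

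In 2D, 2 of the 5 members changed with iECs, beside 8.17% of all tested genes. *Lcn2* rose 1.80 ± 0.25 on the log2 scale (SE, edgeR adjusted p = 0.000918), from 6.66 and 6.79 CPM in 2D-iH to 23.8 and 22.0 CPM in 2D-iHE. *Ly6a* fell by 0.52 on the log2 scale (SE 0.05, edgeR adjusted p = 8.51e-05), from 73.5 and 73.0 CPM to 50.9 and 49.2 CPM. Neither pair of libraries overlapped the other. *Ltf* and *Pigr*, with no more than 26 counts in any 2D library, differed by 0.57 ± 0.55 and 0.60 ± 1.46 and did not pass (edgeR adjusted p of 0.606 and 0.865). *Sftpd* had no counts to compare.

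The effect of iECs differed between 3D and 2D for the same 2 genes, beside 3.14% of all tested genes called for this difference. For *Lcn2*, the effect in 3D was lower than in 2D by 1.61 on the log2 scale (a difference of -1.61 ± 0.30, edgeR adjusted p = 0.0126). For *Ly6a*, it was 0.36 ± 0.07 higher (edgeR adjusted p = 0.0174), from effects of -0.17 ± 0.05 in 3D, which did not pass, and -0.52 ± 0.05 in 2D. Neither call held in every fit with a library left out. That of *Lcn2* was lost without any single library of 2D-iH or 2D-iHE (edgeR adjusted p of 0.0654 to 0.0985), and that of *Ly6a* without any single library of 2D-iH, 2D-iHE or iHLO (0.0636 to 0.107).

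**Figure D2:**
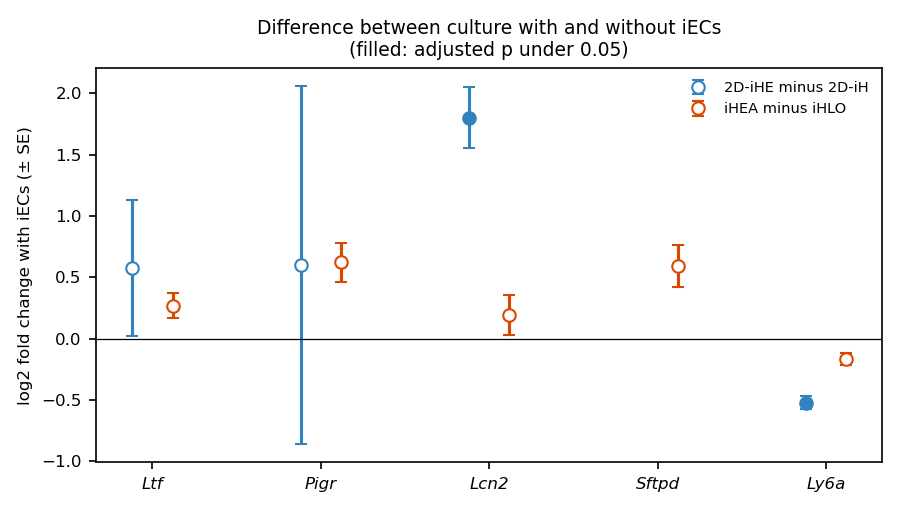
Fitted log2 fold change between cultures with and without iECs, in 2D (blue) and in 3D (orange), with bars of ± 1 SE from 2 libraries against 2 and filled symbols where the edgeR adjusted p is under 0.05. Only *Lcn2* (1.80) and *Ly6a* (-0.52) in 2D are filled, and *Sftpd* has no 2D point because it had 0 counts there.

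Adult and fetal liver were compared to see where the members stand in native tissue. *Ltf*, *Lcn2* and *Ly6a* differed between them, beside 84% of all tested genes. *Ly6a* was 5.97 ± 0.13 and *Lcn2* 3.78 ± 0.13 higher in adult liver on the log2 scale, with edgeR adjusted p of at most 1.04e-09. *Ltf* went the opposite way and was lower in adult than in fetal liver (-4.30 ± 0.28, edgeR adjusted p = 1.79e-07). These directions were the same under total-count scaling, which moved the median of all genes from -0.10 to -1.55 and the split of called genes from 5949 higher and 6552 lower to 2466 higher and 11154 lower. The sizes moved, to 4.53 for *Ly6a*, 2.33 for *Lcn2* and -5.74 for *Ltf*. *Pigr* and *Sftpd* reached the filter on low counts only with the adult liver libraries, where they are high, so they are described without a test. Their mean CPM in adult liver was 3830 and 14.6 times that of fetal liver, or 1426 and 5.4 times by total count. *Ltf* is stored in neutrophil granules, and the 16 neutrophil and myeloid granule markers summed to 335.1 to 404.2 CPM in fetal liver and 37.4 to 38.2 CPM in adult liver, whose part in the *Ltf* difference was not tested.

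Against fibroblasts, *Ltf*, *Lcn2* and *Ly6a* were 3.04 ± 0.59, 6.56 ± 0.17 and 1.33 ± 0.08 higher in adult liver on the log2 scale (edgeR adjusted p at most 0.00072), where 87.7% of all tested genes were called. These differences depended on scaling. By total count, those of *Ltf* and *Lcn2* were 1.68 and 5.17 and still passed. *Ltf*, with 2 and 6 counts in fibroblasts, differed by 2.31 without Fib 1 and by 4.07 without Fib 2. For *Ly6a* by total count, adult liver had 19.3 and 20.1 CPM and the fibroblast mean lay above them, with a difference of -0.06 and an edgeR adjusted p of 0.571. *Pigr* was at least 22240-fold and *Sftpd* at least 49.3-fold higher than in fibroblasts, which had 0 counts of each, and these bounds fell to 8817-fold and 19.5-fold with CPM by total count. Fetal liver exceeded fibroblasts in *Ltf* by 7.34 ± 0.33 and in *Lcn2* by 2.77 ± 0.20, and it was lower in *Ly6a* (-4.65 ± 0.13), with edgeR adjusted p of at most 4.89e-07, beside 86% of all tested genes called. The *Ltf* difference was 6.62 without Fib 1 and 8.37 without Fib 2. *Pigr* was at least 5.81-fold and *Sftpd* at least 3.39-fold higher in fetal liver than in fibroblasts.

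Markers of the cell types that classically make these proteins were followed beside the members. Among the 16 neutrophil and myeloid granule markers, none had enough counts in the cultures to be tested. Their summed level was 0.312 to 1.36 CPM in 3D and 0.283 to 1.11 CPM in 2D, and *Mpo*, *Camp*, *Csf3r* and *Retnlg* had 0 counts in all 4 libraries of 3D culture. *Mmp8*, a neutrophil collagenase, had 0 counts in 2D and 1 to 30 in 3D, the highest in iHEA 1. The 8 pan-leukocyte markers summed to at least 7.41 CPM in each 3D library against 0.629 to 0.822 CPM in 2D. That level came from *Laptm5*, a lysosomal membrane protein of blood cells, at a mean of 8.11 CPM in 3D, while *Ptprc* (CD45) had at most 2 counts and *Tyrobp* none. *Igha* and *Cd79b* of the B and plasma cell list had 0 counts in all cultures. The 9 genes of that list summed to 10.1 to 14.3 CPM in 3D and 8.13 to 8.86 CPM in 2D. Most of this was *Derl3*, a protein of endoplasmic reticulum quality control, the 1 tested gene of the list, which was 0.57 ± 0.10 higher in 3D (edgeR adjusted p = 0.000243). The part of these cell types in the members' levels was not tested.

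Lung epithelial markers were partly missing beside *Sftpd*. The alveolar genes *Sftpa1*, *Lamp3* and *Nkx2-1* had 0 counts in all cultures, and *Sftpb* and *Sftpc* at most 8 and 1. Of the 10 alveolar type II markers 4 were tested and all 4 were higher in 3D, beside 38.7% of all tested genes, led by the protease *Napsa* (4.86 ± 0.14 on the log2 scale). The 10 summed to 252.9 to 269.9 CPM in 3D and 166.5 to 178.4 CPM in 2D. Most of this was *Abca3*, with means of 160.1 and 113.0 CPM. Among the 8 airway markers, 3 of 4 tested were higher, and these 3 reached the filter only with their 3D libraries. *Foxj1* had 2 to 5 counts in 2D and 26 to 50 in 3D. *Scgb1a1*, the club cell secretoglobin, rose by 4.98 ± 0.49, and *Cyp2f2* had 1 to 3 counts in 2D and 3029 to 3576 in 3D, though it is also a liver gene, with adult liver at 1129 to 1146 CPM for the summed list. Epithelial markers moved both ways, 5 of 10 higher and 4 lower. *Epcam* was 4.37 ± 0.17 higher, *Krt8* was 0.52 lower (-0.52 ± 0.06), and their summed level was 2662 to 3195 CPM in 3D and 2939 to 3347 in 2D.

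**Figure D3:**
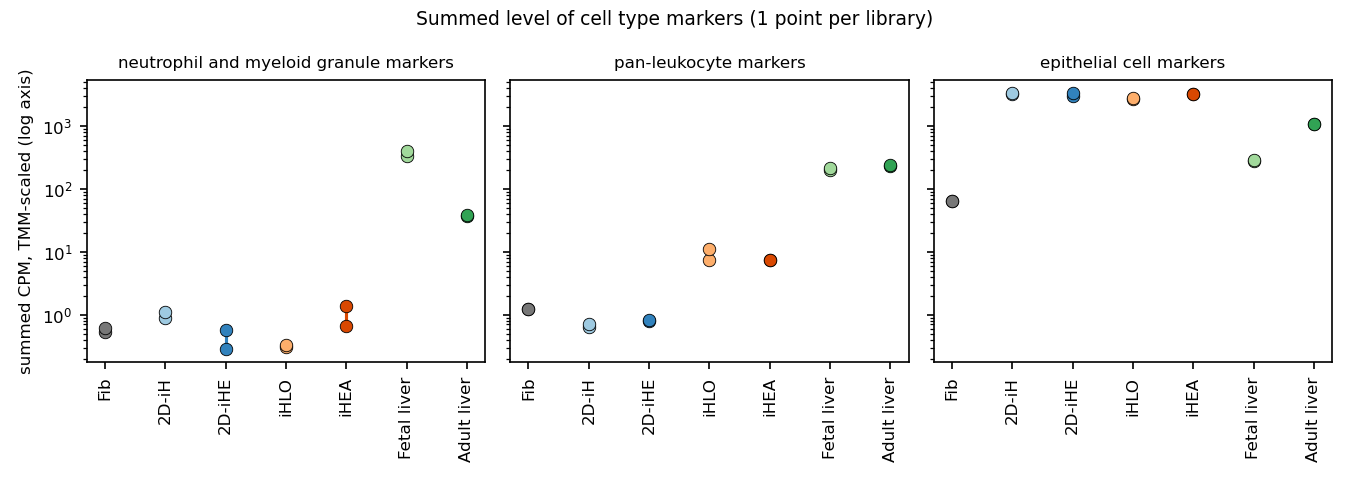
Summed CPM of 3 marker lists on a log axis, 1 point per library. Neutrophil and myeloid granule markers stay at or below 1.36 CPM in all cultures and reach 335.1 to 404.2 CPM in fetal liver, whereas epithelial markers are as high in 2D as in 3D.

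Other genes of mucosal defence, secreted products as well as membrane mucins and enzymes, were followed next. Of 34 listed genes, 19 were tested in 3D against 2D, where 15 were higher and 2 lower, with a median log2 fold change of 5.06 beside 0.01 over all genes. Among all tested genes, 38.7% were called higher and 37.2% lower. The filter favoured such calls, as 6 of the 15, *Muc5ac*, *Reg3g*, *Duox2*, *Tff3*, *Ccl28* and *Agr2*, reached it only with their 3D libraries. The median of the other 13 tested genes was 3.35. The trefoil peptide *Tff3* had 0 counts in 2D and 199 to 279 in 3D, at least 82.5-fold higher. *Agr2*, a folding factor for mucins, had 0 to 2 counts in 2D and 332 to 613 in 3D, and the chemokine *Ccl28* had 1 to 3 and 279 to 512. The scavenger protein *Dmbt1*, named after its values were seen because it had the highest level of the list, went from 13.9 to 1719 CPM. The antiprotease *Slpi* fell by 2.95 on the log2 scale and lysozyme *Lyz2* by 0.61, so not every antimicrobial gene followed. With iECs in 3D, the membrane mucins *Muc1* (0.92) and *Muc4* (0.83), *Ccl28* (0.83) and *Agr2* (0.82) were called higher and the chemokine *Ccl20* (-0.74) lower. In 2D with iECs, *Muc13* (-1.21) and *Ccl20* (-0.66) were lower and ceruloplasmin *Cp* (0.60) was higher.

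Relatives of the members were grouped by family, and the counts in these and the following lists stand beside the same 38.7% of all tested genes called higher and 37.2% called lower in 3D. In the transferrin and lipocalin families 7 of 17 genes were tested, of which 5 were higher and 1 lower in 3D (median 1.14). One of the 5, *Ptgds*, reached the filter only with its 3D libraries (median of the others 0.83). Transferrin *Trf* was 2.50 ± 0.33 higher, the lipocalins *Ptgds* and *Orm1* 2.65 ± 0.43 and 2.08 ± 0.15 higher, and the retinol carrier *Rbp4* was lower (-0.82 ± 0.25). In iHEA against iHLO, *Orm3* was lower (-0.96). Among collectin and ficolin pathway genes 2 of 4 tested were higher, namely *Calr* (1.63 ± 0.06) and *Lrp1* (1.68 ± 0.08), which serve as a cell surface receptor pair for collectins, while the proteases *Masp1* and *Masp2* did not pass (-0.26 ± 0.43 and 0.14 ± 0.13).

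In the Ly6 family, 8 of 10 tested genes were higher and 2 lower (median 1.99), with 1 of the 8, *Ly6m*, reaching the filter only with its 3D libraries. *Lypd8*, which keeps bacteria off the colonic epithelium, was 10.71 ± 0.27 higher, from 3 to 28 counts in 2D to 15883 to 19333 in 3D. *Psca* was 4.40 ± 0.31 and *Ly6c2* 3.98 ± 0.22 higher, whereas *Slurp1* (-1.31 ± 0.47) and the urokinase receptor *Plaur* (-0.20 ± 0.07) were lower. With iECs, *Ly6c1* was lower both in 3D (-0.32) and in 2D (-0.37), as was *Psca* in 3D (-0.87) and *Slurp1* in 2D (-1.39).

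Receptors and carriers of the members and of related proteins were tested next. Of 9 receptor and handling genes, 5 were tested, with 3 higher and 1 lower (median 0.56). The transferrin receptors *Tfr2* and *Tfrc* were 2.35 ± 0.13 and 0.56 ± 0.07 higher and *Lrp1* 1.68 ± 0.08 higher. *Slc22a17*, a lipocalin 2 receptor, was lower (-0.56 ± 0.20). *Lrp2* and *Itln1* had too few counts for a test, with 3 to 16 and 0 to 2 per culture library. With iECs in 2D, *Tfr2* (0.52) and *Lrp1* (0.31) were higher and *Tfrc* (-0.26) was lower. For transcytosis of the *Pigr* product, 5 of 9 tested genes were higher and 3 lower (median 0.67, or 0.33 without *Rab25*, which reached the filter only with its 3D libraries). *Rab25* and *Rab17*, small GTPases of apical recycling, were 2.22 ± 0.52 and 1.93 ± 0.09 higher, and the motor *Myo5b* 1.27 ± 0.08 higher. *Rab3b*, which binds the receptor directly, was lower (-2.13 ± 0.25), as were *Yes1* (-0.29 ± 0.07) and *Vps35* (-0.11 ± 0.04). With iECs in 2D, *Myo5b* (0.28) was higher and *Rab3b* (-0.87) and *Rab11a* (-0.27) lower.

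Signalling genes known to act upstream of such proteins were grouped by pathway, and differences between pathways were not tested. Of 28 tested NF-kB and IL-17 genes, 11 were higher and 12 lower in 3D (median 0.03), beside 38.7% and 37.2% of all tested genes. The receptor subunit *Il17re* (3.29 ± 0.14), *Cxcl5* (3.29 ± 0.14) and *Tlr2* (2.98 ± 0.09) were higher, and *Il6* (-2.72 ± 0.40), *Tnfaip2* (-2.50 ± 0.19) and *Cxcl2* (-1.57 ± 0.11) were lower. With iECs in 2D, where *Lcn2* rose, 7 of the 28 were higher, beside 4.26% of all tested genes, namely *Nfkbie* (0.83), *Icam1* (0.67), *Tnfaip2* (0.61), *Tnfaip3* (0.37), *Cxcl1* (0.32), *Traf3ip2* (0.24) and *Nfkb2* (0.23), and *Ccl20* was lower. In 3D with iECs, only *Ccl20* of these 28 was called. The part of these genes in the *Lcn2* values was not tested.

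On the oncostatin M, IL-6 and STAT3 axis, 11 of 19 tested genes were higher and 5 lower in 3D (median 0.54), *Saa1* reaching the filter only with its 3D libraries. The acute-phase products *Saa1* (5.64 ± 0.47), *Hp* (4.11 ± 0.81) and *Lbp* (4.09 ± 0.13) led, and *Timp1* (-2.0 ± 0.10), *Pim1* (-0.72 ± 0.07) and the receptor *Osmr* (-0.64 ± 0.19) were lower. *Hp* rested largely on iHEA 1, with 2063 counts against 223 to 282 in the other 3 libraries of 3D culture. With iECs in 2D, *Osmr* (0.77), *Lbp* (0.48), *Il6ra* (0.30) and *Il6st* (0.18) were higher, and in 3D *Pim3* (-0.27) was lower. Of the interferon response genes, 22 of 26 tested were higher and 2 lower in 3D (median 1.04). They included *Ifitm3* (4.87 ± 0.28), the immunoproteasome subunit *Psmb8* (3.70 ± 0.13) and *Irf7* (2.35 ± 0.09), against *Cxcl10* (-1.55 ± 0.23) and *Ifi27* (-0.30 ± 0.05). In 2D, 9 of the 26 were higher with iECs, beside the same 4.26% of all genes, among them *Gbp2* (0.65), *Bst2* (0.46), *Gbp3* (0.45) and *Gbp7* (0.41). The part of this response in the level of *Ly6a*, which fell there, was not tested.

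Of the C/EBP and epithelial ETS factors, 7 of 9 tested were higher and 1 lower in 3D (median 2.08, or 1.23 without *Spdef*). *Spdef*, a factor of secretory cell differentiation, had 0 to 3 counts in 2D and 102 to 190 in 3D and so reached the filter only with its 3D libraries. *Elf3* was 2.52 ± 0.10 and *Ehf* 2.20 ± 0.04 higher, and *Cebpb* was lower (-0.38 ± 0.08). With iECs in 2D, *Cebpa* (0.81) was higher and *Elf3* (-0.34) and *Cebpd* (-0.32) were lower. Of 10 glucocorticoid response genes, 7 were higher and 2 lower (median 0.46), with *Tat* (4.98 ± 1.01, passing the filter only with its 3D libraries, with 538 counts in iHEA 1 and 43 to 71 in the others) and *Mt1* (1.00 ± 0.09) higher and *Dusp1* (-1.60 ± 0.08) and *Per1* (-0.52 ± 0.05) lower. *Tsc22d3* (0.18) was higher with iECs in 2D, and *Mt1* (-0.32) and *Fkbp5* (-0.20) were lower with iECs in 3D.

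**Figure D4:**
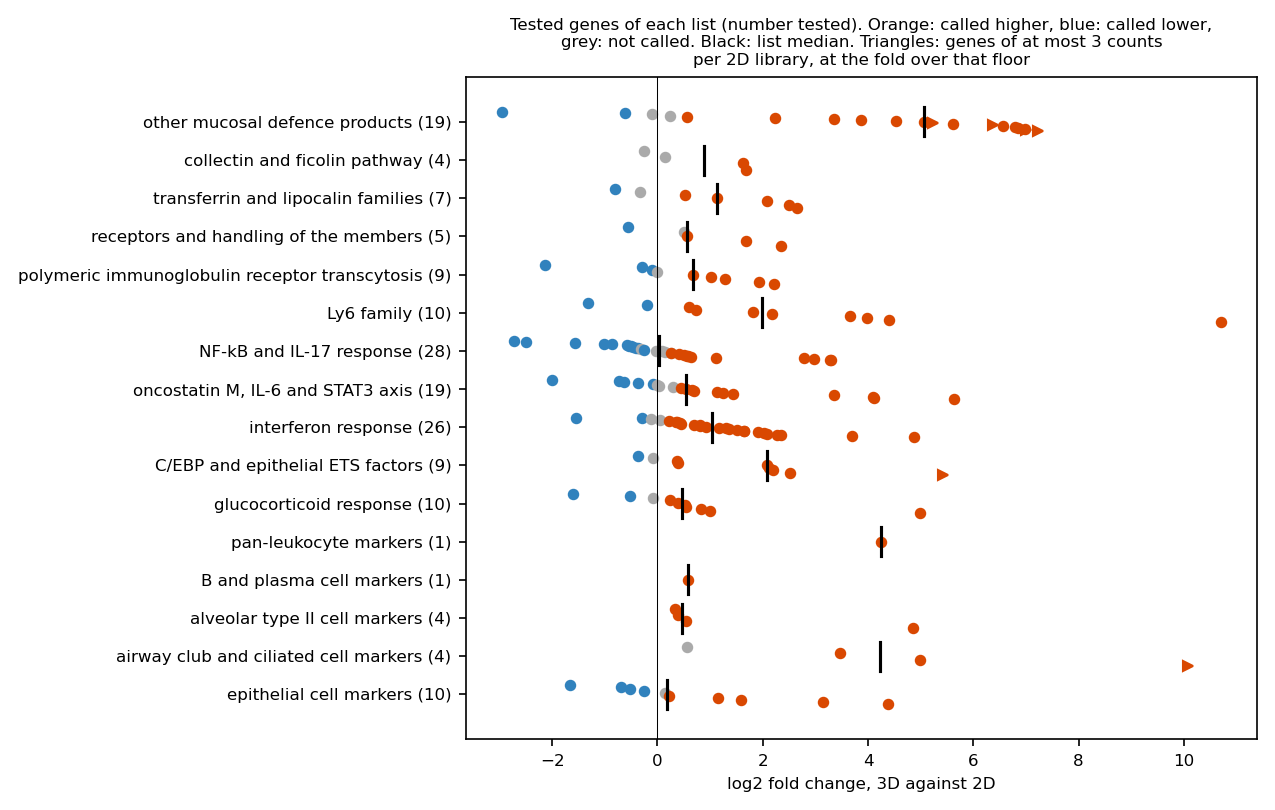
Log2 fold change in 3D against 2D of every tested gene in 16 lists, with the number tested in brackets and a black bar at the list median. The 19 other mucosal defence products have a median of 5.06, or 3.35 without the 6 that reached the filter only with their 3D libraries, and NF-kB and IL-17 response genes are split around 0 (0.03).

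Genes next to the members on the chromosome were examined within 200000 bases. Beside *Ltf*, *Ccrl2* was 3.33 ± 0.16 higher in 3D on the log2 scale, at 507 to 835 counts, and *Rtp3*, which reached the filter only with its 3D libraries, had 1 to 3 counts in 2D and 23 to 47 in 3D. Both stayed far below *Ltf*. *Ly6c1* beside *Ly6a* was 3.67 ± 0.12 higher, from 205 to 408 counts in 2D to 2986 to 4567 in 3D, and *Ly6i* had too few counts for a test. Around *Pigr*, *Fcamr* (0.50 ± 0.29) did not pass and *Fcmr* had at most 1 count in any culture. *1110008P14Rik* and *Ptges2* beside *Lcn2* differed by 0.33 ± 0.07 and 0.58 ± 0.07. *Mbl1*, a collectin gene beside *Sftpd*, had at most 3 counts in 2D and 0 in 3D.

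The pattern over all 14 libraries was compared with 14120 other genes by the Pearson correlation of log2 CPM, as a description over libraries that share groups and preparation. *Liph* (r = 0.987) and *Pglyrp1* (0.984), a secreted peptidoglycan-binding protein, were most like *Ltf*, followed by *Ippk*, *Cnppd1* and *Agr2*. *Pglyrp1* averaged 54.3 CPM in iHLO, 51.6 in iHEA, 3.28 in fetal liver and 0.737 in adult liver, so that these 4 groups stood as for *Ltf* except that iHLO was above iHEA. For *Pigr* the closest were *Ccdc85c* (0.989), *Tmem184a*, *Ctsb*, the bile acid transporter *Slc10a2* (0.983) and *Ifi47*, and for *Lcn2* *Tnfrsf1b* (0.979), *Fbxo31*, *Cox7a2l*, *Rnf114* and the acute-phase gene *Saa3* (0.968). *Sftpd* was most like the serine protease gene *Tmprss4* (0.993), then *Elmo3*, *Tc2n*, *Rpn1* and *6430548M08Rik*. *Ly6a* was most like the lysosomal protease gene *Ctsd* (0.996), then *Tgfbrap1*, *Pigb*, *Samd9l* and *Tgoln1*. With a prior count of 0.5 in place of 2, 3 or 4 of the 5 closest genes of each member stayed the same. The members resembled each other less, with r from 0.552 between *Ltf* and *Ly6a* to 0.932 between *Pigr* and *Sftpd*.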

How the data were processed

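RNA-seq read counts per gene were analyzed for 14 libraries of 7 groups. According to the methods and the submitters' processing notes, the authors trimmed reads with Trimmomatic 0.36, aligned them with HISAT2 to mm10 (GRCm38), annotated them with Cufflinks and counted them with HTSeq, and the deposited values are raw counts. The other versions, the strand setting and the handling of multimapping reads are not given in the sources used here. Groups came from the labels.

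Counts were tested with edgeR 4.0.16 in R 4.3.3 (TMM normalization, quasi-likelihood test, Benjamini-Hochberg adjustment, threshold 0.05). Genes were tested where log2(count + 1) averaged 3 or more in the libraries of a fit (8 culture or 6 reference libraries), and all 5 members passed in both, *Pigr* and *Sftpd* only with their 3D libraries in the first and with adult liver in the second. The 3D against 2D fit set 4 libraries against 4, and the other culture contrasts had 1 term per group. In simulated counts with 200 genes changed by 1 on the log2 scale, 85.5% were recovered for iHEA against iHLO with 3.93% false calls. For adult against fetal liver, 86% were recovered with 6.52% false calls, above the 5% aimed at. In the measured counts, 84% of all tested genes were called for adult against fetal liver. Whether these rates hold with that many genes changed was not tested. A group whose libraries had 0 counts was set to a floor of 3 counts per library for lower bounds, and floors cover counting error only. Levels per length used the exon union of GENCODE M21. The mean of 2 libraries ± SD is over libraries. Likeness was computed on log2 CPM (prior count 2).

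The members, lists, tests and motifs were chosen with earlier results of these data known. From each list, the genes named are up to 3 called higher and up to 3 called lower with the largest differences in 3D against 2D, and those called with iECs. Genes named from the neutrophil, leukocyte, B cell and lung marker lists were picked after their values were seen, many of them for having 0 counts. Alternatives comprised the fit without a filter, a stricter filter (mean of 5 or more), DESeq2 1.42.0 (size factors and Wald test), library numbers as a block, all 14 libraries in 1 fit, total-count CPM, a prior count of 0.5 and each library left out. Total-count scaling in the tests and the block's libraries without the block were added after seeing the data. Equally numbered libraries did not deviate together (correlations of -0.03, -0.04 and -0.01 in the cultures), so numbers were not used to pair them.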

Additional observations from a re-analysis of the deposited data

Results flagged for a closer look

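The effect of iECs differed between 3D and 2D by a test of the difference itself for 2 of the members. For *Lcn2* the log2 difference between the effects was -1.61 (effect of 0.19 in iHEA against iHLO and 1.80 in 2D-iHE against 2D-iH). For *Ly6a* it was 0.36 (effects of -0.17 and -0.52). Among all tested genes, 3.14% were called for this difference. Both rest on 2 libraries per group and were lost in some fits with 1 library left out, with edgeR adjusted p of up to 0.0985 for *Lcn2* (any 2D library) and 0.107 for *Ly6a* (any 2D or iHLO library), and whether reads from the human iECs contribute to either was not tested.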

How the results depend on the processing

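*Ltf*, *Lcn2* and *Ly6a* kept their direction and their calls, in every fit that tested them, in the 3 contrasts between adult liver, fetal liver and fibroblasts, with 1 exception. *Ly6a* in adult liver against fibroblasts went from 1.33 to -0.055 with total-count scaling. The size of the adult liver differences also depended on scaling, for example 3.04 against 1.68 for *Ltf* over fibroblasts. Counts of called genes in the contrasts with and without iECs depended on the settings. Without the filter on low counts, 881 genes were called in iHEA against iHLO and 901 for the difference between the effects, against 303 and 421. With 1 library left out, the counts ranged from 93 to 723 for iHEA against iHLO, from 250 to 2014 for 2D-iHE against 2D-iH and from 129 to 959 for the difference. The highest counts came without iHEA 1 and the lowest without iHLO 1 or 2D-iHE 1. Each of these fits left a group with a single library, whose spread was then not measured. The library number as a block needed the unnumbered iHEA library to be left out, and gave 617, 1945 and 772 called genes. The same libraries without the block gave 646, 2002 and 791, so the block itself moved these counts little, and among the members the pairing ended 1 call, *Pigr* in iHEA against iHLO (edgeR adjusted p of 0.332 with the block and 0.0309 without it). With the block, the differences of *Ltf*, *Pigr* and *Sftpd* there were -0.01, 0.15 and 0.13. In 3D against 2D the number of called genes of each list stayed within 1.5 times, as with 12 to 24 against 17 for other mucosal defence products, apart from 4 rather than 2 called collectin and ficolin genes and 2 rather than 1 called pan-leukocyte markers with all 14 libraries in 1 fit, and 1 rather than 3 called airway markers with the filter of at least 5. The causes were not tested. *Ltf* and *Pigr* had at most 26 counts per 2D library, and the effect of iECs had an SE of 0.55 and 1.46 on the log2 scale there.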
